A study of Glycine max with 6 samples.

Results

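The regions described here were called as bound by the soybean protein GLYMA.13G153200 in 3 of 4 chromatin immunoprecipitation (ChIP-seq) libraries and were missed only by the library of antibody 1 replicate 1. They numbered 7801 of the 39947 regions formed by joining the 4 deposited peak lists. A region is a chain of linked peaks, where 2 peaks of different libraries count as linked once they overlap by 50% or more of the shorter one's length. Members were chosen by the authors' peak calls alone: each had a call in antibody 1 replicate 2, antibody 2 replicate 1 and antibody 2 replicate 2, and no call in antibody 1 replicate 1, at the deposited q-value threshold of 0.01. They were compared with the 11511 regions that held a peak in all 4 libraries, called shared regions below.

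The samples came from greenhouse-grown soybean of cultivar Williams 82, as whole embryos dissected at mid-maturation from seeds of 200 to 250 mg. Chromatin was fixed for 10 min in 1% formaldehyde and precipitated with 2 antibodies in 2 biological replicates each, which with 2 input libraries makes 6 samples. Each antibody was raised to a different peptide of the protein, residues 103–117 or residues 275–289, and the labels do not tie the numbers 1 and 2 to these peptides. All ChIP libraries share genotype, tissue and stage, and none of the samples is chromatin that lacks the protein or was precipitated with an unrelated antibody. The study set out to find the protein's binding sites, and using antibodies to different stretches of it shows which sites recur with either.

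The name of the protein in the peak lists is ABI5 (ABSCISIC ACID INSENSITIVE 5). In Arabidopsis, ABI5 is a basic leucine zipper (bZIP) transcription factor that carries the abscisic acid signal in seeds. It binds DNA elements with an ACGT core in promoters and is known for its part in activating genes of late embryogenesis abundant proteins, which protect the seed as it dries. At mid-maturation the cotyledons of a legume embryo accumulate storage protein and oil. The genes next to the regions and their DNA sequence were not analysed here, so the regions are given by position in the coordinates of the deposited lists, whose genome build is not given in the sources used here.

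Antibody 1 replicate 1 stood apart from the other libraries by its short list. It held 12047 peaks, against 27768 in antibody 1 replicate 2, 23296 in antibody 2 replicate 1 and 36189 in antibody 2 replicate 2. Of the 19312 regions with a peak in each of the other 3 libraries, 40.4% were missed by it (95% exact binomial interval 39.7 to 41.1). The corresponding sets for the other libraries were small, with 129 regions missed only by antibody 1 replicate 2, 84 missed only by antibody 2 replicate 1 and 83 missed only by antibody 2 replicate 2. The number rests on the lists used: without antibody 2 replicate 1 in the rule, 13195 regions were missed, and with lists of equal length 683. Lack of a call is not evidence that the protein was absent from a site. The members lay clear of nearly all called sites of the library that missed them, which follows in large part from the rule. Any region with a linked antibody 1 replicate 1 peak was left out, so only overlaps too small to link could remain. The counts of overlaps and summits are therefore a description. Only 1 of the 7801 overlapped an antibody 1 replicate 1 peak at all, by 3 bp, at chr11:8092515-8093030, and that peak belonged to a neighbouring shared region. In 73 an antibody 1 replicate 1 peak lay within 250 bp of the region's edge, and in none did the mean summit position, averaged over the libraries that called the region, lie inside such a peak.

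Sites that antibody 1 replicate 1 missed were weaker in each of the 3 libraries that called them. The fold enrichment at the summit is the authors' ratio of ChIP signal to local background, and the summit is the base where a peak's signal is highest. In antibody 1 replicate 2 its median was 5.33 at missed regions and 8.70 at shared regions. In antibody 2 replicate 1 the medians were 4.35 and 7.41, and in antibody 2 replicate 2 they were 5.86 and 9.16, again with the missed regions lower. The ratio of missed to shared medians was 0.613, 0.587 and 0.640 in these libraries, with a mean of 0.613 ± 0.027 (SD, n = 3 libraries). These values come from the same calls as the choice of the members and are a description. With 3 libraries an exact sign permutation test cannot go below a two-sided p of 0.25, and none was run.

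The same difference held in the fragments themselves. The number of DNA fragments stacked at the summit was recovered from the deposited values. In antibody 1 replicate 2 the median missed region had 35 fragments, with an exact Poisson interval at 95% from 24.4 to 48.7, and the median shared region had 59 (44.9 to 76.1). The numbers in antibody 2 replicate 1 were 49 (36.3 to 64.8) at missed and 82 (65.2 to 101.8) at shared regions. Those in antibody 2 replicate 2 were 37 (26.1 to 50.9996) at missed and 59 (44.9 to 76.1) at shared regions. The median missed region thus had fewer fragments in every library. The intervals cover the counting error of a single region with that count, not the error of a set's median. They overlap in antibody 1 replicate 2 and antibody 2 replicate 2, which does not measure the difference between the sets. The expected background under the summit differed little between the sets. In antibody 1 replicate 2 it had medians of 5.66 fragments at missed and 5.78 at shared regions. The values were 7.35 at missed and 7.11 at shared regions in antibody 2 replicate 1, and 5.15 at missed and 5.43 at shared regions in antibody 2 replicate 2. Those of antibody 2 replicate 1 were left as solved from the deposited values, whereas its fragment numbers were divided by a factor given below. Its backgrounds therefore cannot be set against its fragment numbers or against the backgrounds of the other libraries. The background was thus lower at missed regions in both replicate 2 libraries and higher in the replicate 1 library.

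**Figure D1:**
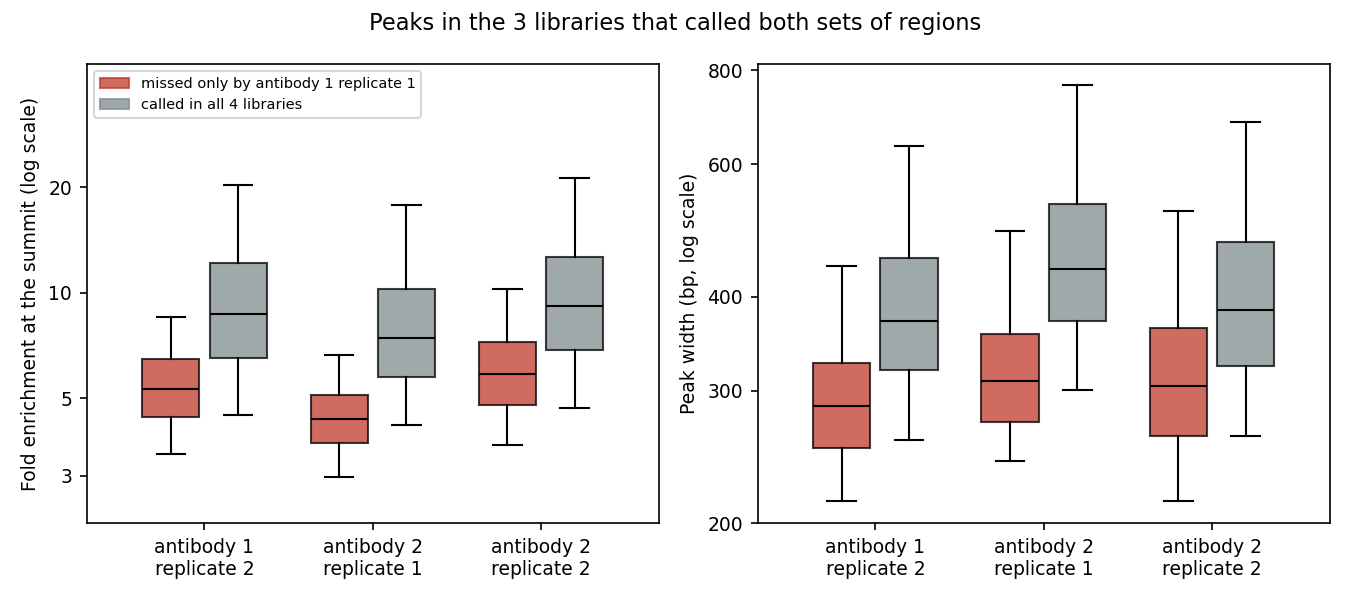
Fold enrichment (left) and peak width (right), both on log axes, of missed regions (red) and shared regions (grey) in the 3 libraries that called both. Boxes span the quartiles around the median line and whiskers run from the 5th to the 95th percentile; in each library the red box sits below the grey one, with medians of 5.33 and 8.70 in antibody 1 replicate 2.

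The sets overlapped in strength. Between a missed and a shared region drawn at random, the shared one had the higher fold enrichment in 83.5% of pairs in antibody 1 replicate 2, 88.6% in antibody 2 replicate 1 and 79.7% in antibody 2 replicate 2. Only 22 missed regions (0.282%) exceeded the shared median in all 3 libraries, which 3991 shared regions (34.7%) did. In the other direction, 1730 missed regions (22.2%) lay below the missed median in all 3 libraries, against 233 shared regions (2.02%), which were called in antibody 1 replicate 1 all the same.

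By median fold enrichment, missed regions held a middle place among the sets of regions. The sets are defined by which libraries called them, so this order follows in part from the rule. In antibody 2 replicate 2 their median fold enrichment of 5.86 lay above the 4.88 of regions called by both antibodies in replicate 2 alone, the 4.76 of regions called in both antibody 2 libraries alone and the 4.23 of regions called in that library alone. In antibody 1 replicate 2 they had 5.33, against 4.57 in regions of replicate 2 alone. In antibody 2 replicate 1 they had 4.35, against 4.002 in regions of antibody 2 alone. The upper end differed. In antibody 2 replicate 2 the 90th percentile was 8.86 at missed regions and 10.5 at regions of antibody 2 alone. It was 6.70 at regions of replicate 2 alone and 5.91 at regions of that library alone.

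The share of sites that antibody 1 replicate 1 missed fell steeply with their strength in any of the other libraries. The 19312 regions were sorted by fold enrichment in each library and divided into 10 bins of about equal size. In antibody 2 replicate 1, 89.8% of the weakest bin were missed, 46.3% of the fifth bin and 1.04% of the strongest. In antibody 1 replicate 2 the shares were 79.97%, 47.9% and 0%, with 0 of 1932 regions in the strongest bin (95% exact binomial interval 0 to 0.191%). In antibody 2 replicate 2 they were 75.9%, 47.6% and 4.92%. At the weak end the share was highest when regions were sorted by the library of the same replicate number, antibody 2 replicate 1. In the strongest bin of antibody 1 replicate 2 no region was missed, against 51 of 1928 in the bin below it (2.65%). By comparison, 95 of the 1932 strongest sites of antibody 2 replicate 2 and 20 of the 1931 strongest of antibody 2 replicate 1 were missed.

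**Figure D2:**
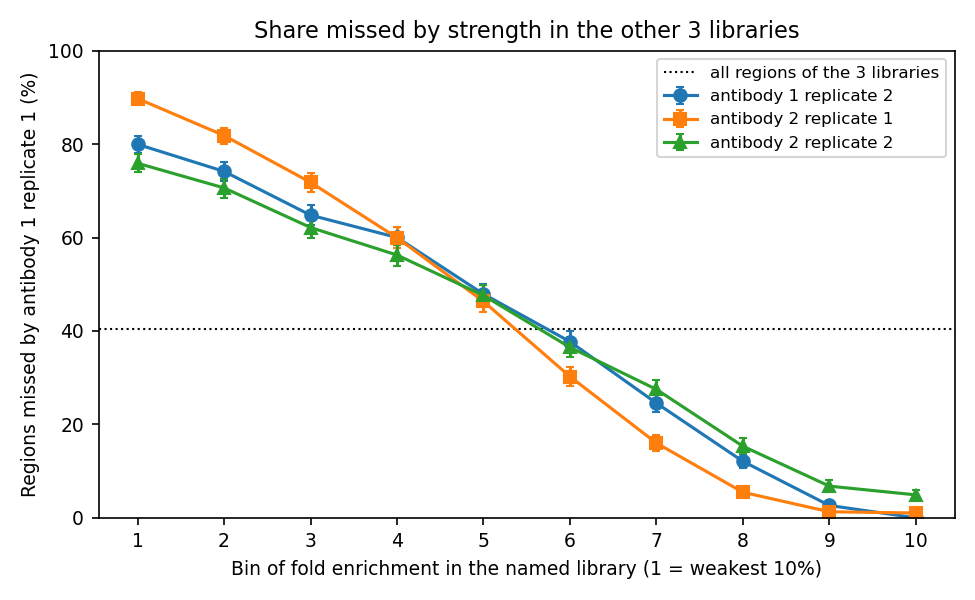
Share of regions missed by antibody 1 replicate 1 (y axis, percent) in each of 10 bins of fold enrichment (x axis, weakest to strongest) in each of the other 3 libraries. Bars are 95% exact binomial intervals and the dotted line is the 40.4% of all 19312 regions; the weakest bin lies between 75.9% and 89.8% in the 3 libraries, and the strongest between 0% and 4.92%.

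Most missed regions stood at similar strength with both antibodies. In replicate 2, where both antibodies called every member, the ratio of antibody 2 to antibody 1 fold enrichment had a median of 1.08 and quartiles of 0.926 and 1.28 over missed regions. Shared regions had a median of 1.03 and quartiles of 0.909 and 1.18. The ratio of replicate 2 to replicate 1 with antibody 2 had a median of 1.35 at missed and 1.21 at shared regions. It exceeded 2 at 923 missed regions (11.8%) and 604 shared regions (5.25%), and at 8.31% of all regions with peaks in both antibody 2 libraries.

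A minority of missed regions leaned towards antibody 2. In replicate 2, fold enrichment was more than 2 times higher with antibody 2 at 244 missed regions, which is 3.13% (95% exact binomial interval 2.75 to 3.54). This compares with 128 shared regions, or 1.11% (0.929 to 1.32), and with 1.69% of all regions with peaks in both replicate 2 libraries. The ratio exceeded 3 at 97 missed regions (1.24%, 1.01 to 1.51) and 45 shared regions (0.391%, 0.285 to 0.523). The opposite lean was rarer. At 8 missed regions (0.103%) and 5 shared regions (0.0434%) antibody 1 was more than 2 times higher, against 0.0647% of all regions with both peaks. Members are by choice regions that an antibody 1 library missed, so these shares are a description.

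Missed regions have no antibody 1 value in replicate 1, so the ratio cannot be read there, but the strength with antibody 2 can. At the 97 missed regions with a ratio above 3 in replicate 2, antibody 2 replicate 1 had a median fold enrichment of 7.43. It was 4.65 at the 147 with a ratio of 2 to 3, and 4.33 at the 7549 between 0.5 and 2. Antibody 2 replicate 1 did not enter the ratio. Antibody 2 replicate 2, the numerator of the ratio that chose the 97, had medians of 19.7 at the 97 and 5.79 at the 7549. Antibody 1 replicate 2, the denominator, had 4.196 at the 97 and 5.37 at the 7549. The 97 were thus chosen in part for strength with antibody 2, so the replicate 1 values do not show antibody 2 relative to antibody 1. Only shared regions allow the ratio to be read in replicate 1 as well. At the 45 with a ratio above 3 in replicate 2, the replicate 1 ratio of antibody 2 to antibody 1 had a median of 3.10 and exceeded 2 at 42 of them. At the 83 with a ratio of 2 to 3 its median was 1.82, and it exceeded 2 at 30 (36.1%). The median was 1.31 at the 11378 between 0.5 and 2.

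A further set was 22 missed regions whose fold enrichment ranked in the top 10% of each antibody 2 list. They made up 0.282% of the missed regions (95% exact binomial interval 0.177 to 0.427). The same rule was met by 16.2% of shared regions and by 8.87% of all regions with peaks in both antibody 2 libraries, so the share among missed regions lay far below the background. The number rests on the lists used, which also change the missed set. Without antibody 1 replicate 2, 44 of 9863 missed regions met the rule. Without antibody 2 replicate 1, where a single antibody 2 list remained, 192 of 13195 did. With lists of equal length 4 of 683 did, with the top 10% taken within the shortened lists. Shared regions meeting it numbered 1863 of 11639, 3218 of 11628 and 733 of 7861 in the same order. Their fold enrichment ran from 11.4 to 29.9 in antibody 2 replicate 1 with a median of 14.3, and from 12.4 to 55.2 in antibody 2 replicate 2 with a median of 27.4. In antibody 1 replicate 2 it ran from 2.43 to 7.76 with a median of 4.97. None of them is among the missed regions above the shared median in all 3 libraries, since that median was 8.70 in antibody 1 replicate 2. The ratio of antibody 2 to antibody 1 in replicate 2 was above 2 in all 22, with a median of 5.49 and a range of 2.71 to 11.8. At the 1861 shared regions that met the same rule the median ratio was 1.03, and 62 (3.33%) exceeded 2. The 22 regions lay on 14 chromosomes and were 489 to 1095 bp wide. The 22 were selected on high antibody 2 values and on a missing antibody 1 call, so their high ratio follows in part from the choice and is a description. This set and its ratio were chosen after their values were seen.

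The strongest of the 22 lay at chr13:14063044-14063692. With antibody 2 its fold enrichment reached 29.9 in replicate 1, on 304 fragments, and 55.2 in replicate 2, on 288 fragments. With antibody 1 replicate 2 it was 7.76, on 42 fragments. It lay 881 bp from a shared region, summit to summit. The next, at chr13:34325869-34326548, had 19.3 and 31.4 with antibody 2 and 7.37 with antibody 1. The antibody 1 value of both was itself above the median of its list, at the 71.9th and 68.9th percentiles. At chr2:40479948-40480969, fold enrichment was 17.9 and 28.7 with antibody 2 and 4.19 with antibody 1. At chr14:44869507-44870601, the widest of the set, it was 17.4 and 23.6 with antibody 2 on 277 and 239 fragments. Antibody 1 replicate 2 had 2.68 there on 23 fragments, at the 0.337th percentile of its list. The region chr11:6625622-6626147 had the largest contrast, with 12.3 and 28.6 for antibody 2 and 2.43 for antibody 1, a ratio of 11.8 in replicate 2. Its −log10 q in antibody 1 replicate 2 was 2.22, close to the calling threshold of q = 0.01, so this member was nearly missed by both antibody 1 libraries. A shared region lay 669 bp away.

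**Figure D3:**
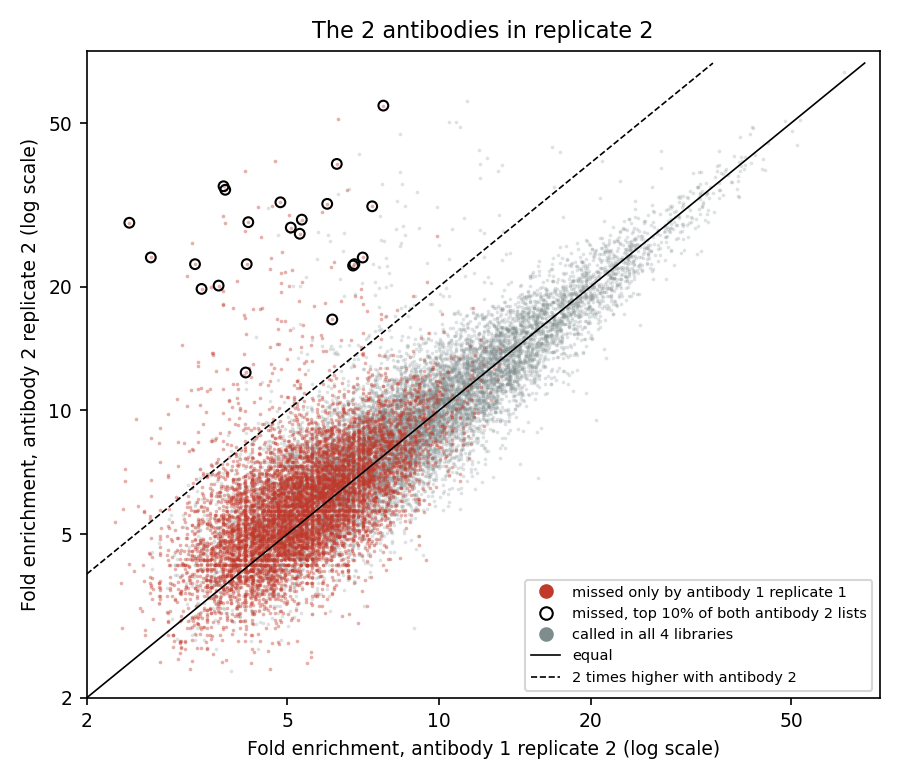
Fold enrichment in replicate 2 with antibody 2 (y axis) against antibody 1 (x axis), both on log scales, for missed regions (red) and shared regions (grey). Open circles are the 22 missed regions ranked in the top 10% of each antibody 2 list, all above the dashed line of a 2-fold higher value with antibody 2, while the bulk of both sets follows the solid line of equal values.

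Very strong single values were rare among missed regions. The top 10% of fold enrichment in a list held 6 missed regions in antibody 1 replicate 2 (0.0769%), 23 in antibody 2 replicate 1 (0.295%) and 180 in antibody 2 replicate 2 (2.31%). For shared regions the numbers were 2763 (24.0%), 2280 (19.8%) and 3218 (28.0%), and by construction 10.0% of the peaks of each list fall there. The highest fold enrichment of a missed region was 13.2 with antibody 1 replicate 2, against 29.9 and 55.2 in the antibody 2 libraries.

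Ranking by the lowest of the 3 within-list percentiles picks missed regions that were strong in every library that called them, and so leaves out those that lean to an antibody. The first, at chr9:42784394-42784766, had a fold enrichment of 12.3 with antibody 1 replicate 2 on 65 fragments. With antibody 2 it had 9.56 on 88 fragments in replicate 1 and 14.2 on 71 fragments in replicate 2. The second, at chr14:23909339-23909722, had 11.7, 9.52 and 17.8 in these libraries. Both exceeded the shared median in all 3 libraries. The third, at chr20:44617902-44618360, had 11.6, 9.35 and 14.4. The other 12 of the 15 best ranked were chr1:17154364-17154736, chr6:13658051-13659063, chr6:38508549-38508915, chr17:7924406-7924886, chr3:38316675-38317025, chr9:43096281-43096667, chr9:2313755-2314113, chr10:1455487-1455838, chr12:2510019-2510411, chr11:24906809-24907212, chr2:623918-624322, and chr5:41427054-41427450. Over the 15, fold enrichment ran from 8.87 to 12.3 with antibody 1 replicate 2. For antibody 2 it ran from 8.003 to 10.7 in replicate 1 and from 8.78 to 17.8 in replicate 2. Their ratio of antibody 2 to antibody 1 in replicate 2 stayed between 0.906 and 1.52.

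At the other end, the weakest missed region by its best percentile was at chr8:10315683-10316089. It had a fold enrichment of 3.08, 2.81 and 2.66 in antibody 1 replicate 2, antibody 2 replicate 1 and antibody 2 replicate 2. The next 4 lay at chr14:42578531-42578893, chr16:36142829-36143476, chr19:43003529-43003851 and chr20:7514928-7515327. None of these 5 exceeded the 3.29th percentile of fold enrichment in any of the 3 lists.

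Just across the calling threshold lay shared regions whose antibody 1 replicate 1 peak was barely called. The lowest −log10 q of that library among shared regions, 2.18, belonged to chr3:1779284-1779702, with a fold enrichment of 2.16 there. The other 3 libraries had 6.40, 4.59 and 5.84 at this site, in the order antibody 1 replicate 2, antibody 2 replicate 1, antibody 2 replicate 2. Next were chr19:32412188-32412714 with a −log10 q of 2.23, chr17:2523295-2523824 with 2.38, chr10:45358741-45359110 with 2.48, and chr11:12658059-12658650 with 2.76. In the other 3 libraries the values of these 5 regions ran from 2.87 to 8.59, a range in which many missed regions lay.

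Missed regions were also narrower. Median peak width was 286 bp at missed and 371 bp at shared regions in antibody 1 replicate 2, 309 and 435 bp in antibody 2 replicate 1, and 304 and 384 bp in antibody 2 replicate 2. The difference averaged −97 ± 25.2 bp (SD, n = 3 libraries). The joined regions had a median width of 357 bp, against 465 bp for shared regions, and ran from 237 to 1596 bp. At 74 missed regions (0.949%) and 310 shared regions (2.69%) a library had 2 or more peaks in the same region. Width at matched strength was not compared.

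The 3 libraries placed their summits close together at missed regions, somewhat less tightly than at shared regions. All 3 summits lay within 100 bp of one another at 6955 missed regions, which is 89.2% (95% exact binomial interval 88.4 to 89.8), and at 94.6% of shared regions (94.2 to 95.003). Within 50 bp the shares were 59.3% (58.2 to 60.4) and 74.8% (73.99 to 75.6). The median distance between the summits of a pair of libraries was 25 to 26 bp at missed and 19 bp at shared regions. Summits more than 200 bp apart were found at 228 missed regions (2.92%) and 237 shared regions (2.06%).

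Rankings by strength were shared between libraries to a lesser degree at missed regions. Spearman's rho of fold enrichment across the 7801 missed regions was 0.577 between the antibodies in replicate 2, 0.300 between the replicates of antibody 2 and 0.263 between antibody 1 replicate 2 and antibody 2 replicate 1. Across the 11511 shared regions the values were 0.865, 0.722 and 0.709. The order of the pairs was the same in both sets, with the only pair of the same replicate number most alike. The choice of members narrows their range of strength, which lowers a rank correlation, and this part was not separated. With recovered fragment numbers the values at missed regions were 0.545 between the antibodies, 0.549 between the replicates of antibody 2 and 0.493 for the pair that differed in both. The pair of the same replicate number was then about level with the pair of the same antibody. By −log10 q the values in the same order were 0.539, 0.437 and 0.392, with the pair of the same replicate number again highest. Regions are not independent replicates, and the pairs have libraries in common.

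By median distance, sites missed by antibody 1 replicate 1 lay no closer to shared sites than shared sites lay to one another. The median distance from a missed region to the nearest shared region, summit to summit, was 14.6 kb, with quartiles of 5.204 and 34.9 kb (n = 7792). From a shared region to the nearest other shared region it was 14.4 kb, with quartiles of 5.03 and 33.98 kb (n = 11500). Regions on scaffolds with no shared region to measure to were left out, 9 missed and 11 shared. Within 2000 bp of a shared region lay 820 missed regions, which is 10.5% (95% exact binomial interval 9.85 to 11.2), and 1316 shared regions, which is 11.4% (10.9 to 12.04). Within 1000 bp the shares were 3.82% (3.41 to 4.27) and 3.52% (3.19 to 3.87), within 10000 bp 39.7% and 40.0%, and within 100000 bp 92.7% and 93.3%. The small differences changed sign with distance when measured summit to summit. Measured between region edges, the share was lower for missed regions at each distance listed from 250 to 5000 bp. It was 3.38% against 3.90% within 500 bp, 7.21% against 8.26% within 1000 bp and 13.1% against 14.2% within 2000 bp. Neighbours 1000 to 1250 bp away were found at 1.87% of missed and 2.40% of shared regions. In percentage points this was the widest gap among the 250 bp bins below 4000 bp. At 500 to 750 bp the shares were 1.53% and 1.34%. Within 500 bp, summit to summit, the share was higher for missed regions. Such a neighbour was found at 18 of them (0.231%, 0.137 to 0.365) and at 8 shared regions (0.0696%, 0.0300 to 0.137). Below 250 bp none had one, since overlapping peaks had been joined.

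**Figure D4:**
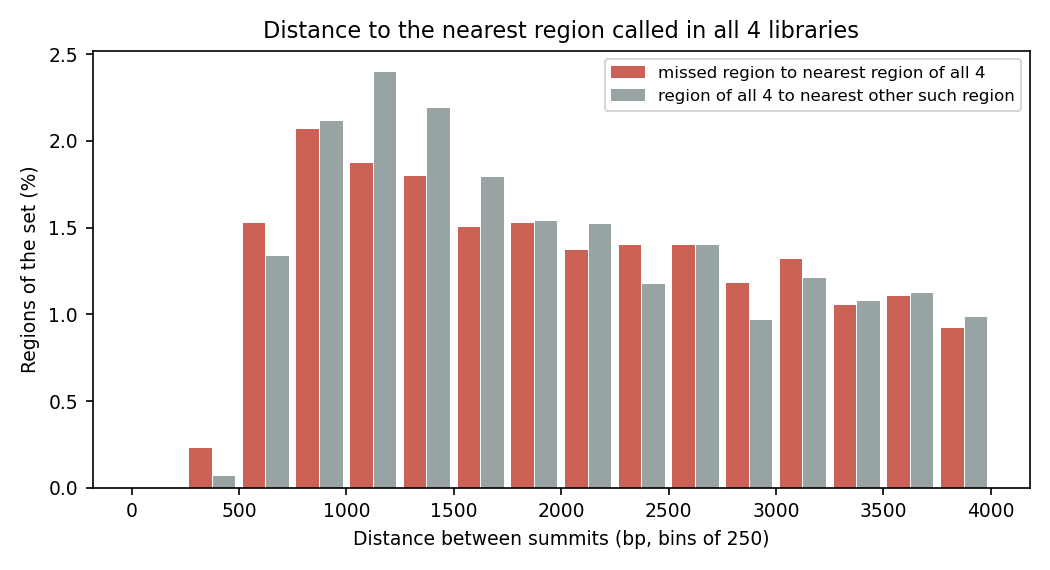
Distance between summits (x axis, bins of 250 bp up to 4000 bp) from a missed region to the nearest shared region (red) and from a shared region to the nearest other shared region (grey), as a percentage of the regions of each set (y axis). Both sets rise from near 0 below 500 bp to about 2% around 1000 bp, with 1.87% and 2.40% at 1000 to 1250 bp.

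Missed regions beside a shared region resembled those far from one. The 820 within 2000 bp had median fold enrichments of 5.18, 4.39 and 5.76 in antibody 1 replicate 2, antibody 2 replicate 1 and antibody 2 replicate 2, against 5.35, 4.34 and 5.87 at the other 6981. Their shared neighbours were ordinary for that set, with medians of 8.86, 7.63 and 9.16 in those libraries and 5.47 in antibody 1 replicate 1, against 8.70, 7.41, 9.16 and 5.46 over all shared regions. The missed member of a pair was not always the weaker. It had the higher fold enrichment in 114 of the 820 pairs (13.9%) in antibody 1 replicate 2, 90 (10.98%) in antibody 2 replicate 1 and 158 (19.3%) in antibody 2 replicate 2. The 820 had 789 different shared neighbours, of which 31 served more than 1 missed region and 17 had missed regions on both sides.

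The closest pair lay on chromosome 19, with summits 403 bp apart. The missed region at 41881858 to 41882180 had fold enrichments of 5.59, 4.53 and 3.73 in antibody 1 replicate 2, antibody 2 replicate 1 and antibody 2 replicate 2. Its shared neighbour at 41882271 to 41882613 had 3.97, 3.61 and 5.71, and 3.46 in antibody 1 replicate 1. Here the missed region was the stronger of the pair in 2 of the 3 libraries. The next closest were chr18:41509526-41509808 with 436 bp, chr11:2294369-2294772 with 438 bp, chr13:38657355-38657694 with 448 bp, and chr2:39737277-39737576 with 449 bp. At chromosome 11 the missed region had 8.92, 4.74 and 7.07, so that it was the stronger in antibody 1 replicate 2, where its neighbour had 7.90, and the weaker in the other 2, where its neighbour had 12.2 and 11.8.

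A few missed regions were isolated. The farthest from any shared region lay at chr14:26333964-26334307, 2.23 Mb away. It was followed by chr13:4797063-4797427 at 1.96 Mb, chr10:18409858-18410207 at 1.72 Mb, chr14:26957054-26957519 at 1.61 Mb and chr7:24851262-24851688 at 1.40 Mb. Their fold enrichments ran from 3.77 to 7.25 over the 3 libraries.

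Along the chromosomes, missed and shared regions were spread alike. Of the 7751 missed regions on the 20 chromosomes, 6021 lay in the outer 25% at either end, which is 77.7% (95% exact binomial interval 76.7 to 78.6), against 78.1% of the 11449 shared regions (77.4 to 78.9). The share missed varied little along the chromosome, and with its length divided into 10 equal parts it was 39.7% in the first part, 43.7% (39.9 to 47.5) in the fifth and 40.02% in the last. The density of missed regions was 2.18 per Mb in the sixth part, against 15.5 and 16.1 per Mb in the first and last. For shared regions it was 3.14 per Mb in the sixth part and 23.6 and 24.2 per Mb at the ends. The strength of missed regions hardly varied with position. Outer regions had a median fold enrichment of 5.31 and inner ones 5.41 with antibody 1 replicate 2. For antibody 2 the medians were 4.34 (outer) and 4.35 (inner) in replicate 1, and 5.84 (outer) and 5.94 (inner) in replicate 2.

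Among the chromosomes, the share missed ran from 37.0% on chromosome 18 (314 of 849, 95% exact binomial interval 33.7 to 40.3) to 44.1% on chromosome 7 (402 of 911, 40.9 to 47.4). The interval excluded the overall 40.4% only on these 2 of the 20. Missed regions were densest on chromosome 13, where there were 12.5 per Mb, with an exact Poisson interval at 95% from 11.5 to 13.5. Shared regions were densest there too, at 18.4 per Mb, and the share missed there was 40.4%, the same as on the whole. Missed regions were sparsest on chromosome 18, at 5.42 per Mb (4.83 to 6.05), where shared regions had 9.23 per Mb. At chromosome 13, which also carries the gene of the protein by its name, the first 10 Mb held 14 missed and 14 shared regions, and the remainder 558 and 831.

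**Figure D5:**
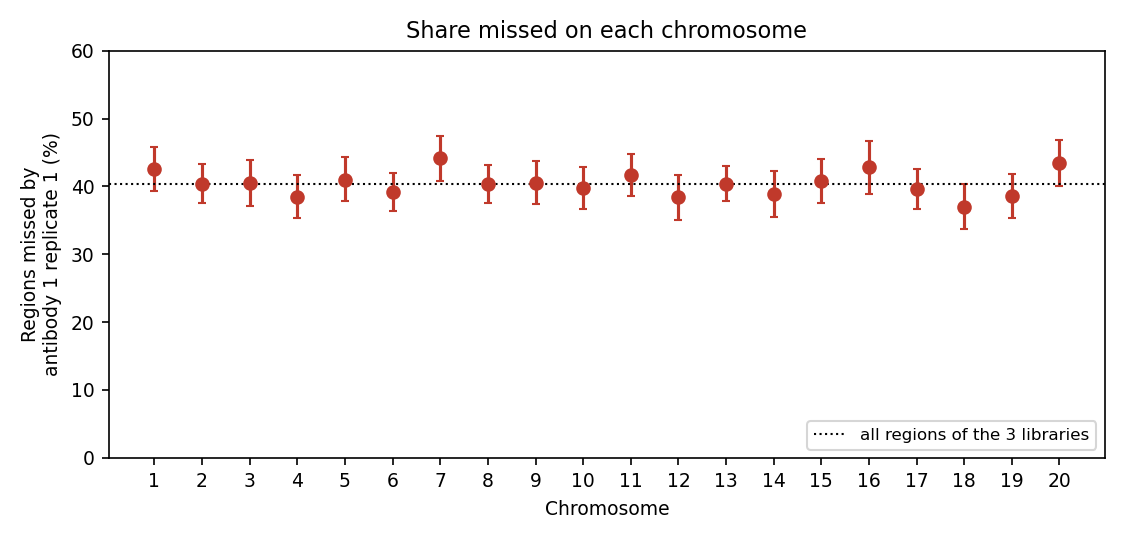
Share of the regions of the other 3 libraries that antibody 1 replicate 1 missed (y axis, percent) on each of the 20 chromosomes (x axis), with 95% exact binomial intervals. The points lie between 37.0% and 44.1%, around the dotted line at 40.4%.

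On a scale of 1 Mb, missed and shared regions occurred together. Across 956 stretches of 1 Mb, Spearman's rho of their numbers was 0.882 as a description, since all stretches come from the same 4 lists. The median stretch held 5 missed and 8 shared regions. The richest stretch in missed regions, from 3 to 4 Mb on chromosome 11, held 36 of them and 38 shared regions. In 57 stretches there were missed regions and no shared ones, 93 missed regions in all, and 68 stretches had shared regions and no missed ones.

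The missed regions were also looked up in lists of equal length. Each longer list was shortened to its best 12047 peaks by −log10 q, as many as antibody 1 replicate 1 held in all. In that form, antibody 1 replicate 2 kept a peak at 2193 missed regions (28.1%) and 9343 shared regions (81.2%). Antibody 2 replicate 1 kept 1845 (23.7%) and 9828 (85.4%), and antibody 2 replicate 2 kept 2153 (27.6%) and 8770 (76.2%). At 4163 missed regions (53.4%) none of the 3 libraries kept its peak, and at 683 (8.76%) all did. Those 683 were missed by antibody 1 replicate 1 even though each other list ranked them within the same number of peaks. Shortening drops a list's weakest peaks, and missed regions were the weaker set, so the loss follows in part from the choice. Whether list length led to the missed calls was not tested.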

How the data were processed

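The submitters' processing notes name Bowtie 0.12.7 and MACS3, with no version for MACS3. The deposited file names give a threshold of q = 0.01 and show 1 list per library, with no pooling. The deposited fold enrichment is a ratio of ChIP signal to expected background at the summit, and the deposited lists also give −log10 p, −log10 q and a score, which was not used. Fold enrichment and −log10 q are the authors' values for each peak, relative to each library's own background, so comparing them across libraries is descriptive. The genome build is not given in the sources used here.

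Starts were counted from 1. Where a library had several peaks in a region, the one of highest fold enrichment stood for it. Pileup and background were solved from fold enrichment, taken as pileup plus 1 over background plus 1, and −log10 p, taken as the Poisson tail. Pileups were whole (tolerance 0.02) in 100% of replicate 2 peaks. In replicate 1 those below 60 with a single solution became whole once divided by a factor per library, 0.973 (antibody 1) or 0.749 (antibody 2), taken as a scaling down by the peak caller, which was not tested. Fragment numbers at the summit are given after that division, and background values as solved, before it. The joining of well-separated regions and the recovery of fragment numbers with a known factor were tested on simulated data. The search for the factor was not tested in this way. Library totals were not used here. The end of the last peak stood for the length of a chromosome.

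Python 3.11.15, pandas 2.3.3, numpy 2.4.6 and scipy 1.17.1 were used. Regions are not replicates, so no difference between sets was tested, and intervals at 95% (exact binomial or Poisson) cover counting error only, since PCR-amplified fragments are not independent molecules. The 2 replicates per antibody are called biological in the labels. Named regions are the 15 missed regions with the best worst-of-3 percentile, the 5 closest to and the 5 farthest from a shared region, the 5 with the worst best-of-3 percentile, and those nearest the rule's thresholds. The members, sets and rules were chosen with earlier results of these data known. Alternatives changed the q threshold, list length, overlap rule, distance measure and libraries used. The input libraries entered only through the background in the peak lists.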

Additional observations from a re-analysis of the deposited data

How the results depend on the processing

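Lists of equal length left 683 missed regions, with a ratio of missed to shared median fold enrichment of 0.734. Of the 683, 5.56% lay within 2000 bp of a shared region, against 8.52% of shared regions. Summits lay within 100 bp at 96.6% of them, and 4 ranked in the top 10% of each shortened antibody 2 list. With peaks of −log10 q of at least 10, 7.64% lay within 2000 bp (shared 9.04%) and 94.1% had summits within 100 bp. That share was 90.6% at −log10 q of at least 5, 90.4% with reciprocal overlap of 50%, 94.9% when regions were joined by summits within 100 bp, and 59.3% for summits within 50 bp. Other distances gave 3.82% within 1000 bp, 24.3% within 5000 bp and 13.1% by the gap between edges (shared 14.2%). The outer 10% at either end held 38.7%. The ratio with −log10 q in place of fold enrichment was 0.399.

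Leaving out antibody 1 replicate 2, antibody 2 replicate 1 or antibody 2 replicate 2 in turn, which loosens the rule, gave 8278 to 13195 missed regions, the highest without antibody 2 replicate 1. The ratio of medians was 0.582 to 0.59957, the width difference −107 to −99 bp and the share within 2000 bp 10.6% to 10.9%. The outer share was 77.5% to 77.9%. The summit share was 93.6% to 94.6%, but fewer summits then had to agree than in the main result. The rank correlation was 0.269 to 0.581, each from a single pair of libraries and not a mean. Missed regions in the top 10% of the antibody 2 lists used numbered 23 of 8278 without antibody 2 replicate 2. They numbered 44 of 9863 without antibody 1 replicate 2 and 192 of 13195 without antibody 2 replicate 1. Of 80 alternative values, 56 stayed near the main value and 24 moved further. Near meant within 1.5 times for counts, within the binomial interval for shares and within 1 SD for the rest. Some alternatives were other quantities, such as other distances, the outer 10% or −log10 q. The SD of the rank correlations was taken across unlike pairs of libraries. The tally is therefore not a measure of robustness. The ratio of medians stayed below 1 and the width difference below 0 in all alternatives run for them. Summit to summit, the share near a shared region was lower for missed than for shared regions within 2000 bp. It was higher within 1000 bp (shared 3.52%). Between region edges it was lower for missed regions within either distance. The causes were not tested. The alternatives for the top 10% set were chosen after seeing the data. No paired analysis was possible because missed regions have no value in antibody 1 replicate 1, so the antibodies share 1 replicate number there. At the median missed region a summit rested on 35 to 49 fragments, which limits the precision of its value.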
